A study of Mus musculus with 41 samples.

Results

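Sox2 and the stretch of chromosome 3 around it were followed through 24 CUT&Tag peak lists of mouse cells and tissues, each list holding the peaks of 1 histone mark in 1 cell type. All peaks that touched chr3:34500000-34900000 of the mm10 build were taken, a window that holds the Sox2 gene and the region about 100 kb downstream of it. This gave 73 peaks of the 545737 in all lists. The 73 peaks came from 14 lists, and the other 10 lists had none there. The marks were lactylation and acetylation of histone H3 (H3K18la and H3K27ac) and 2 methylations (H3K4me3 and H3K27me3), and CUT&Tag maps each of them by letting an antibody guide a transposase to cut and tag the nearby DNA.

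The mouse embryonic stem cells were all of the E14 line, grown either in serum with LIF (mESC-ser, labelled ESC-ser) or in 2i with LIF (mESC-2i, labelled ESC-2i), so they represent a single cell line in both media. The labels give the strain of the other cell types as C57BL/6 and no age, and the study's methods name adult female C57Bl6/J mice and, for fat, adult female AdipoCre-NuTRAP mice, in which Cre of adipocytes switches on a nuclear tag. They were cultured primary muscle precursors (myoblasts, MB), the myotubes (MT) differentiated from them and macrophages grown from bone marrow (BMDM), all labelled DMEM, although per the methods MB grew in DMEM mixed with Ham's nutrient mix and basic FGF and MT in DMEM with horse serum. The remaining ones, with no medium named, were whole gastrocnemius muscle (GAS), macrophages from muscle after ischemia (PIM) and white adipocytes (ADIPO). The treatment field of every sample reads control. H3K18la was profiled in all 8 cell types, H3K27me3 in 7 (all but ADIPO), H3K27ac in 5 and H3K4me3 in 4. The only H3K27ac list of stem cells is that of mESC-ser. The 41 samples form 24 groups, of which 17 have 2 samples and 7 have 1. Stem cells entered the assay as whole cells and the other samples as nuclei, and GAS nuclei come from every cell type of the muscle. The authors merged the replicates of a group before calling peaks, so each cell type and mark has 1 list, no value below has a replicate error, and no difference was tested. A position without a peak is one that the caller left out of its top regions, not one shown to lack the mark. The promoters of the stem cell genes Pou5f1, Nanog, Zfp42 and Esrrb had an H3K18la peak in both mESC lists and in 0 of the 6 other lists. Of the markers of other cell types, the GAS list had an H3K18la promoter peak at 2 of 4 macrophage genes (Csf1r and Spi1, not Adgre1 or Cd68), 2 of 2 endothelial genes (Pecam1 and Cdh5), 2 of 2 fibroblast genes (Pdgfra and Col1a1) and 1 of 4 adipocyte genes (Fabp4). The MT list had one at 3 of 4 macrophage genes (not Adgre1), 1 of 2 endothelial genes (Pecam1), 1 of 2 fibroblast genes (Col1a1) and 0 of 4 adipocyte genes. Pecam1, Pdgfra and Cd68 had H3K18la peaks in both stem cell lists too.

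Sox2 encodes a transcription factor with an HMG box that binds DNA together with Oct4 in pluripotent cells and is needed again in neural progenitors. Its expression in embryonic stem cells depends on a cluster of distal enhancers downstream of the gene, known as the Sox2 control region (SCR), while other enhancers nearer to the gene have been assigned to stem cells or to the nervous system. H3K27ac marks active enhancers and promoters, H3K4me3 marks active or poised promoters, H3K27me3 is set by Polycomb complexes on silenced developmental genes, and H3K18la is a mark that cells form from lactate.

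Sox2 (ENSMUSG00000074637.7 in GENCODE) lies on the plus strand at chr3:34650405-34652461 as a single exon of 2057 bp. Distances below are from its start site (TSS) at 34650405, and downstream is positive. RefSeq, on GRCm38, the assembly called mm10, starts the gene 410 bp further upstream and also annotates experimentally studied elements. These are the 5' regulatory region from -4.475 to -0.172 kb with a promoter element at its end, SRR2 at 3.31 to 3.69 kb, SRR18 at 17.7 to 18.9 kb, the element N-4 at 28.4 to 28.5 kb, and the SCR from 105.4 to 112.1 kb. Inside the SCR RefSeq places a proximal enhancer at 107.2 to 108.8 kb and a distal one at 110.6 to 112.1 kb. SRR2 and SRR18 are annotated as stem cell enhancers and N-4 as an enhancer of the neural ectoderm. Independently of these, 15 kb starting 100 kb downstream of the TSS, chr3:34750405-34765404, were used as the control region of fixed bounds. Sox2ot, a noncoding gene on the same strand, has several start sites before and after Sox2.

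The bases under the highest signal at the promoter, at SRR2 and in the control region are shown first, since the positions of these maxima carry the results that follow. All are on the plus strand of GRCm38. In the promoter sequence (chr3:34649745-34650044) the capitals mark the bases at which the mESC-ser H3K27ac and mESC-2i H3K18la peaks had their maximum. In the core of SRR2 (chr3:34654004-34654084), as RefSeq bounds it, the capitals mark a match to the first part of the composite motif of Sox2 and Oct4. Of the 4 sequences downstream, that at 105.0 kb (chr3:34755301-34755600) has in capitals the bases from the mESC-ser to the mESC-2i H3K18la maximum. Those at 101.4 kb (chr3:34751653-34751952) and 107.6 kb (chr3:34757888-34758187) have in capitals the motifs found in them. The last (chr3:34761225-34761524) has the bases of the H3K27ac maximum in capitals.
Sox2 promoter: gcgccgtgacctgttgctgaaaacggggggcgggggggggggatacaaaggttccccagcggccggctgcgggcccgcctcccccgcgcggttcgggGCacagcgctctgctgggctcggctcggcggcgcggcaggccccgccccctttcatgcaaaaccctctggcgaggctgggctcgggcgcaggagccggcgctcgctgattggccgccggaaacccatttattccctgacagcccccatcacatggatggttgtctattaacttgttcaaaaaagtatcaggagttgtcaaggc
SRR2 core: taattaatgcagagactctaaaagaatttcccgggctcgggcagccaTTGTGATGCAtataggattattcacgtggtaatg
H3K18la maxima at 105.0 kb: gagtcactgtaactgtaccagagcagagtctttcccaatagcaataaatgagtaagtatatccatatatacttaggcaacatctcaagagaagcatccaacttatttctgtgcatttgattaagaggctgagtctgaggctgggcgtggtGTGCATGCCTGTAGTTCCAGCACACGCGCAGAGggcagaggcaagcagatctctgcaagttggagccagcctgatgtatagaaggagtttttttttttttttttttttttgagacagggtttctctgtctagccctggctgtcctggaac
H3K27ac maximum at 101.4 kb: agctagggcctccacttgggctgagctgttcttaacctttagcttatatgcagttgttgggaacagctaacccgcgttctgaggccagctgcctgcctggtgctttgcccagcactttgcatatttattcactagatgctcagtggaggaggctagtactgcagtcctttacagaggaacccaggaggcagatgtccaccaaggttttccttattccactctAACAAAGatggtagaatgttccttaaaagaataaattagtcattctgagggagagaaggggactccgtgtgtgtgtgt
H3K27ac maximum at 107.6 kb: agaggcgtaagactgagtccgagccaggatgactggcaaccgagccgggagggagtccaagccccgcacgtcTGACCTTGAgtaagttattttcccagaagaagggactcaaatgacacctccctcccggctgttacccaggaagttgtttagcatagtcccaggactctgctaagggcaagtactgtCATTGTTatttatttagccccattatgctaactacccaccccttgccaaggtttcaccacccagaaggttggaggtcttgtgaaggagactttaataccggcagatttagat
H3K27ac maximum at 111.0 kb: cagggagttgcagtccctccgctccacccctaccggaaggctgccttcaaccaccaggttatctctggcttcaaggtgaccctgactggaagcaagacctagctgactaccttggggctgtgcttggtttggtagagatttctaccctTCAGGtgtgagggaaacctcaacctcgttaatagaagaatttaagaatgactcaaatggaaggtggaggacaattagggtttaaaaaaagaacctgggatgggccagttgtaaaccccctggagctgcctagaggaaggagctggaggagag

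The promoter sequence was rich in G and C (66.3%) and held 27 CpG, whereas the 300 bases at 105.0 kb had 44.7% G and C, 3 CpG, and 42% of their bases in annotated repeats (31.9% over the whole window). Searched on both strands were ATGCAAAT for Oct4, AACAAAG or AACAATG for Sox factors, TCAAGGTCA for Esrrb, GGGTGTGG for Klf4, TTCCNGGAA for Stat3, the CTCF consensus, and the composite motif of Sox2 and Oct4, which overlaps the Oct4 motif. A shortened form of the composite motif was added after the sequences were seen, and the printed TTGTGATGCA is a match to it. The sequence at 107.6 kb held TCAAGGTCA and AACAATG, both on the minus strand (at 34757960 to 34757968 and 34758076 to 34758082), and that at 101.4 kb held AACAAAG (34751875 to 34751881). Of all 300-bp tiles of chromosome 3, 0.54% held TCAAGGTCA, 6.5% AACAATG, 9.41% AACAAAG, and 19.9% at least 1 of the motifs. The shortened composite motif occurred in 0.277% of these tiles and in 0.289% of RefSeq promoters of the same length. The sequences at the promoter, at 105.0 kb and at 111.0 kb held none of the motifs, which says only that these letters are not in those windows.

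The 5 lists of active marks in stem cells (H3K18la, H3K27ac and H3K4me3 in mESC-ser, H3K18la and H3K4me3 in mESC-2i) held 44 of the 73 peaks. H3K27ac and H3K4me3 peaks lay mostly near the gene and around the control region, with 1 peak or none from 40 to 80 kb. H3K18la also covered 50.8% (mESC-ser) and 67.7% (mESC-2i) of the stretch between. Over the genome, H3K18la called 82.4 Mb in mESC-ser and 128.1 Mb in mESC-2i. The H3K27ac list called 32.0 Mb, and H3K4me3 called 40.9 Mb in mESC-ser and 49.8 Mb in mESC-2i. The part of list size in this contrast was not tested. The mESC-ser H3K18la list had 11 peaks over 101.9 kb, or 25.5% of the window. In mESC-2i, 9 H3K18la peaks took 121.9 kb (30.5%). The 13 mESC-ser H3K27ac peaks were narrower and together took 35.3 kb (8.83%). H3K4me3 took 31.1 kb in 4 peaks in mESC-ser (7.77%) and 28.2 kb in 7 peaks in mESC-2i (7.04%). Over the genome's 6576 tiles of 400 kb, 1.09% were covered at least that far by mESC-ser H3K18la, 1.64% by mESC-2i H3K18la, 2.8% by mESC-ser H3K27ac, 3.76% by mESC-ser H3K4me3 and 5.34% by mESC-2i H3K4me3. The Sox2 window was therefore among the most covered few percent of tiles in each of these lists.

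**Figure D1:**
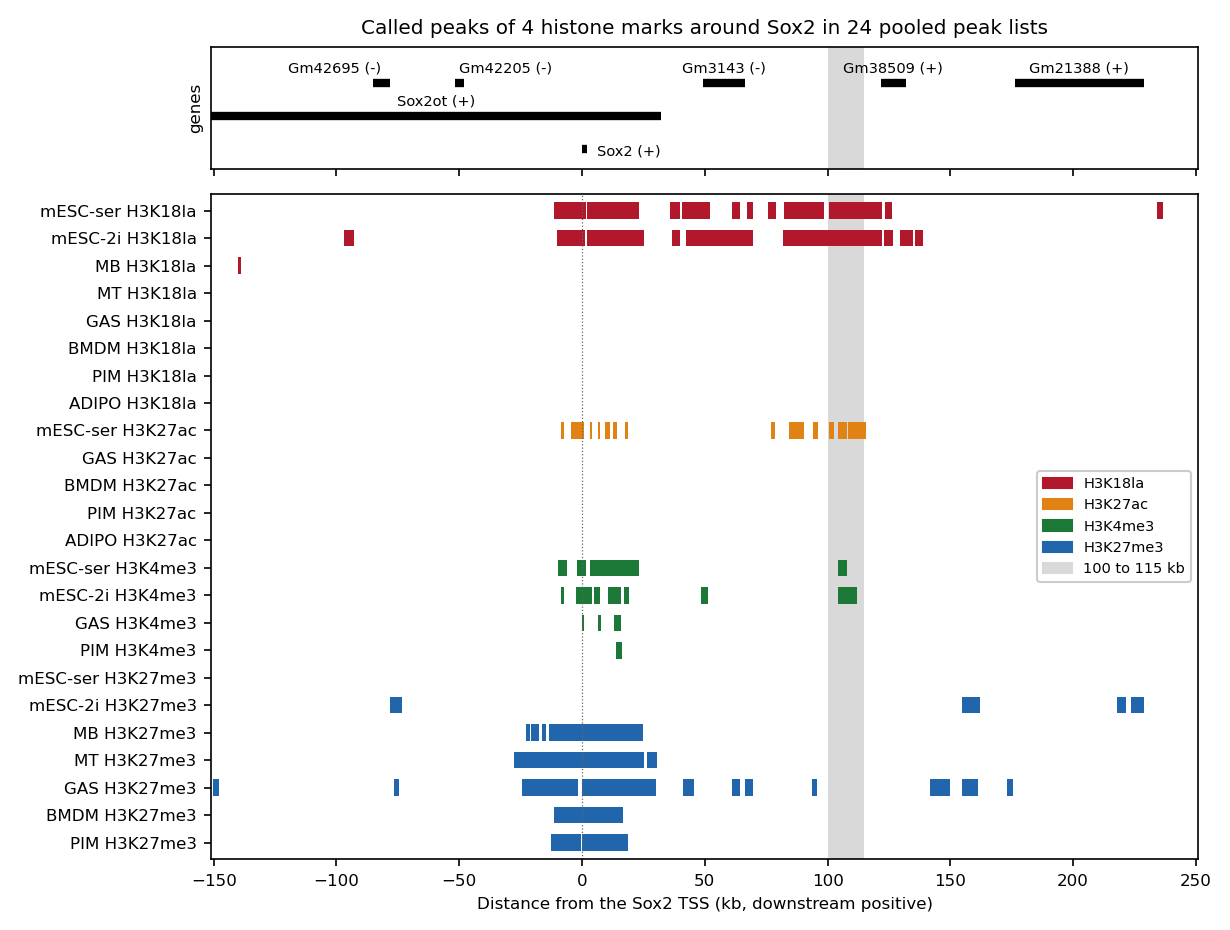
Peaks of all 24 lists in the window, 1 row per list, against distance from the Sox2 TSS in kb; bars are peaks coloured by mark, the grey band is the control region, and the top panel shows genes with their strand. The H3K18la bars of both mESC lists run from the gene through the stretch between to past the control region, with gaps, and the H3K27me3 bars of the other cell types lie mainly around the gene.

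In the control region, H3K18la was nearly continuous in stem cells. The mESC-ser list covered 97.4% of its 15 kb and the mESC-2i list 100%. H3K27ac covered 80.28% in mESC-ser. H3K4me3 covered 25.0% in mESC-ser and 50.2% in mESC-2i. All 19 other lists, H3K27me3 of both stem cell lists among them, covered 0%. Over 175575 genome tiles of 15 kb, 0.123% were covered at least as far as the control region in mESC-ser H3K18la, 0.427% in mESC-2i H3K18la, 0.0222% in mESC-ser H3K27ac, 2.13% in mESC-ser H3K4me3 and 0.205% in mESC-2i H3K4me3. A peak in each of the 5 lists was found in 3.21% of these tiles, and a peak in each of the 5 together with none in the 19 others in 0.053%, or 93 tiles. The control region met both conditions. Its mESC-ser H3K4me3 call was lost (0% covered) when the top 5000 peaks of each list were used, and over the SCR as RefSeq bounds it, a choice made after seeing the data, mESC-2i H3K4me3 covered 97.7%.

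The peaks over the control region were the largest of the window for H3K18la in both media and for H3K27ac. Here total signal is the fragment coverage summed over a peak, maximum signal is the highest coverage in it, and peaks are ranked within their own list, since the signal was not scaled between lists. In mESC-ser, the H3K18la peak at chr3:34750795-34772471 (21677 bp) had a total signal of 743330 and ranked in the top 0.54% of 19057 peaks. In mESC-2i a single peak at chr3:34732236-34772380 (40145 bp) had a total of 2512020 and ranked 48 of 19908 (top 0.241%). By maximum signal they stood lower, at 829 (189) and 544 (478), so their place rests on width as well as height. In mESC-ser the same stretch was split by a gap of 1645 bp into the peak above and its neighbour at chr3:34732530-34749149, which ranked 208 by total signal (557044) and 250 by maximum (287). The largest H3K27ac peak, chr3:34758880-34766147, ranked 191 of 15664 by total (144566) and 1863 by maximum (100).

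**Figure D2:**
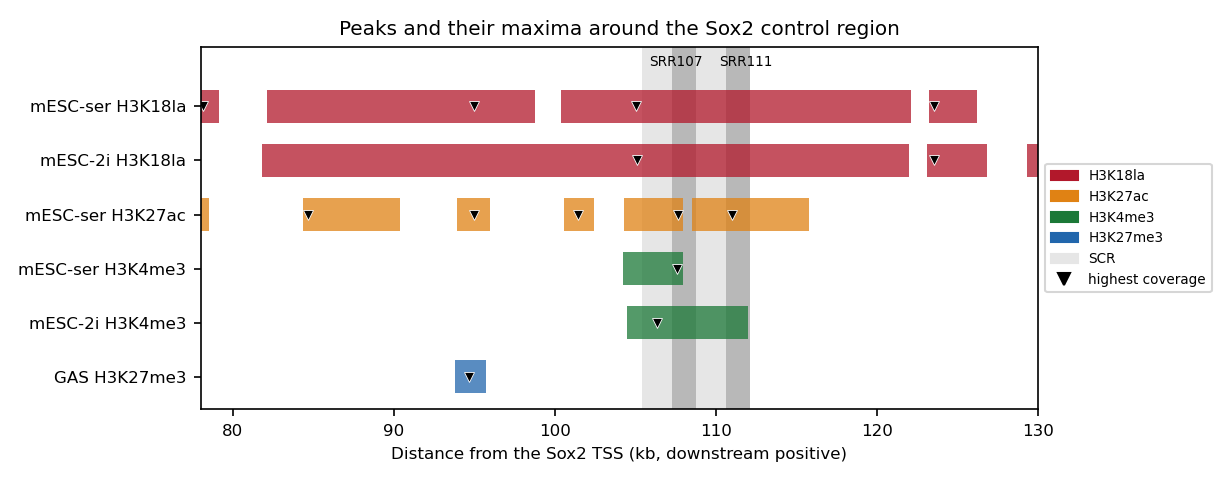
Peaks of the stem cell lists and of GAS H3K27me3 around the control region, against distance from the Sox2 TSS in kb; bars are peaks, triangles mark the bases of highest signal, and the light band is the SCR and the darker bands its annotated enhancers. The H3K18la maxima of both media lie near 105 kb, just before the SCR starts at 105.4 kb, and the H3K27ac and H3K4me3 maxima between 106.3 and 111.0 kb lie inside it.

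The marks differed in where their maxima fell in the control region. The lists give a single maximum per peak. The wide H3K18la peak of each medium can thus show only a single place, while H3K27ac was split into several peaks. In mESC-2i that H3K18la peak also takes in the place at 94.99 kb described below, so a further high there would not be seen. The H3K18la maxima of mESC-ser and mESC-2i were at 34755451 and 34755483, 32 bp apart, in the sequence shown for 105.0 kb, before the start of the SCR at 34755799. The H3K27ac maxima were at 101.4 kb, at 107.6 kb in the proximal enhancer and at 111.0 kb in the distal enhancer, with signals of 43, 97 and 100. H3K4me3 had its maximum at 107.6 kb in mESC-ser (34757956, 79 bp from that of H3K27ac) and at 106.3 kb in mESC-2i. The H3K18la and H3K27ac maxima of mESC-ser nearly coincided at another place, 34745395 to 34745400 and 34745392 to 34745398, outside every annotated element at 94.99 kb. There H3K18la had its highest signal of the mESC-ser window, 287. The stretch shared by all 5 lists in the control region was chr3:34754846-34758346, 3501 bp or 23.3% of the region, which takes in part of the SCR and of its proximal enhancer. The proximal enhancer was touched in 5 of 5 lists and whole in 3, and the distal one was touched in 4, the mESC-ser H3K4me3 list having no peak there.

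Near the gene, the stem cell peaks covered the promoter and the enhancers up to 25 kb downstream. Taking as promoter the 2 kb on either side of the TSS, Sox2 was called in 11 of 24 lists. Active marks called it in all 5 stem cell lists and in GAS H3K4me3, and H3K27me3 called it in the 5 lists of other cell types and in neither stem cell list. Over all 21755 protein-coding genes, the share of called promoters was 33.4% in mESC-ser H3K18la, 37.8% in mESC-2i H3K18la, 40.2% in mESC-ser H3K27ac, 48.8% in mESC-ser H3K4me3, 61.8% in mESC-2i H3K4me3 and 64.2% in GAS H3K4me3. It was 12.5% in MB, 20.1% in MT, 23.9% in GAS, 19.2% in BMDM and 26.4% in PIM for H3K27me3. A call of the Sox2 promoter in any of these lists is therefore shared by many genes, and the combination was rarer. H3K18la in both stem cell lists and in no other list held for 3.5% of genes, H3K27me3 in the 5 other lists and neither stem cell list for 0.694%, and both for 0.188% (41 genes, Sox2 included).

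H3K18la peaks near Sox2 came as a pair on either side of a gap at the end of the transcript. The mESC-ser pair was chr3:34639031-34651854 (rank 891 by total signal, 274798) and chr3:34652319-34673477 (rank 247, 519271). The mESC-2i pair was chr3:34640376-34651782 (rank 2698, 369430) and chr3:34652296-34675641 (rank 591, 971276). The gaps, of 464 and 513 bp, overlapped each other and left 77.4% and 75.1% of the transcript covered. In both media the downstream peak of the pair ranked higher than the one over the TSS, and its maximum was in SRR18, at 34668594 to 34668635 (signal 283) and at 34668635 (482). The upstream peaks had their maxima at different elements. That of mESC-ser, 120, was at 34646347, in the part of the 5' regulatory region called 0.4a, which RefSeq lists as active in trophoblast and stem cells. That of mESC-2i, 180, was at 34649843 in the promoter element, the base at which mESC-ser H3K27ac was also highest in its peak (34649842 to 34649843, signal 57).

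H3K4me3 was highest just inside the gene, at 34651039 in mESC-ser (464) and at 34651168 in mESC-2i (300). The mESC-2i peak over the TSS, chr3:34647857-34654451, ranked 163 of 19362 by total signal. In mESC-ser the TSS peak (chr3:34648490-34652110) ranked 472 of 11002, while a broad H3K4me3 peak downstream of the gene, chr3:34653598-34673671, ranked 179 by total signal and 5 by width (20074 bp). This broad peak ranked far lower by maximum signal (5621) and by signal per base (10586). Its maximum, 285, lay at 34654061 in the SRR2 core, the base next to the printed TTGTGATGCA, and the mESC-ser H3K27ac peak there had its maximum at 34654060 to 34654061. That H3K27ac peak was small, ranking 15441 of 15664 by total signal (15146), with a maximum of 59. In mESC-2i the same downstream stretch was touched by 4 H3K4me3 peaks, the end of the TSS peak, which took in SRR2, and peaks at 4.82 to 7.50, 10.5 to 16.1 and 17.3 to 19.03 kb, and the last had its maximum in SRR18 (34668594). Upstream, 3 lists (mESC-ser H3K27ac and H3K4me3, and mESC-2i H3K4me3) had their maximum at the same base, 34642725, -7.68 kb from the TSS and in none of the listed elements.

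**Figure D3:**
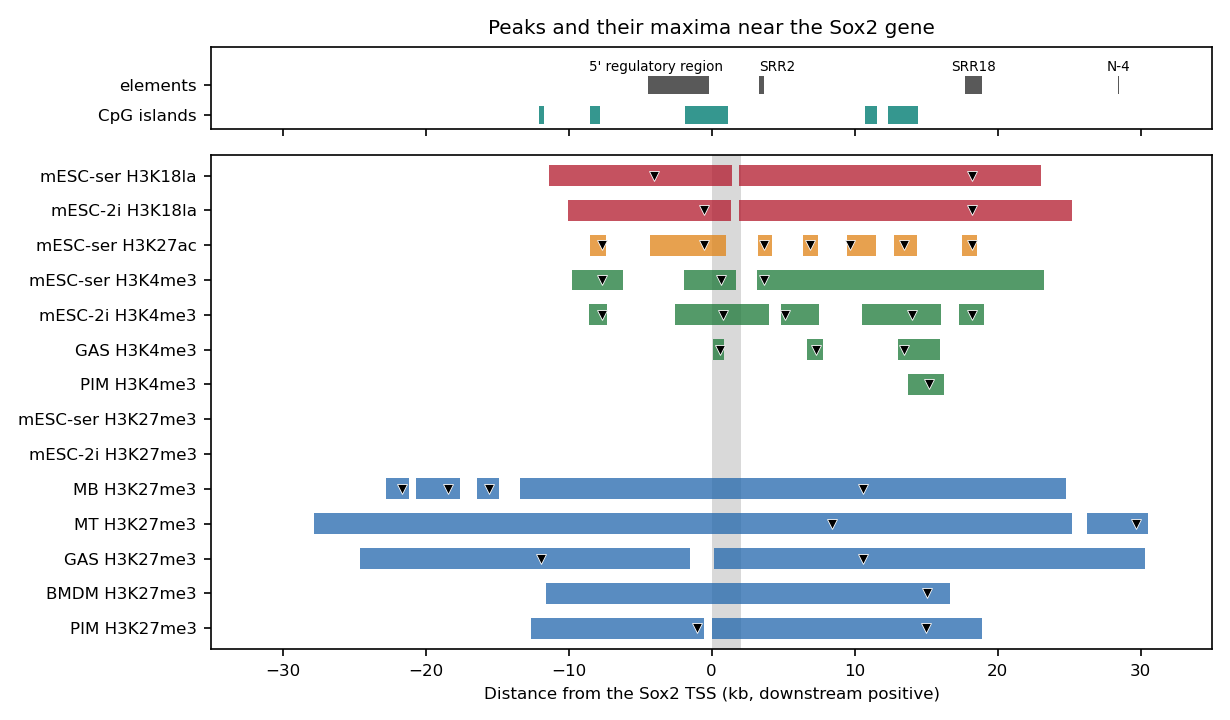
Peaks and their maxima around the Sox2 TSS, against distance from it in kb, for 14 lists, 1 row per list; bars are peaks, triangles their maxima, the grey band the gene, and the top panel shows RefSeq elements and CpG islands. Stem cell maxima gather at -7.68, 3.66 and 18.2 kb. The H3K27me3 bars of MB, MT, GAS, BMDM and PIM overlap the stretch that active marks take in stem cells. The BMDM bar ends at 16.7 kb, before SRR18, and the PIM bars end at 18.9 kb.

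Of the 44 maxima of active marks in stem cells, 13 lay in an annotated element, which together span 12.7 kb of the window (the 5' regulatory region, SRR2, SRR18, N-4 and the SCR). The promoter element and SRR2 were wholly covered in 5 of 5 lists. SRR18 was wholly covered in 4, and to 72.9% by H3K27ac. Coverage of the 5' regulatory region ran from 40.5% to 100%, and that of the SCR from 37.8% to 100%. N-4, the neural element, was covered in 0 of the 5. Active marks in the other cell types covered none of these elements in any of 12 lists. For the whole window, 8 stretches were shared by all 5 stem cell lists, of which 7 lay between -8.52 and 18.6 kb and 1 in the control region.

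**Figure D4:**
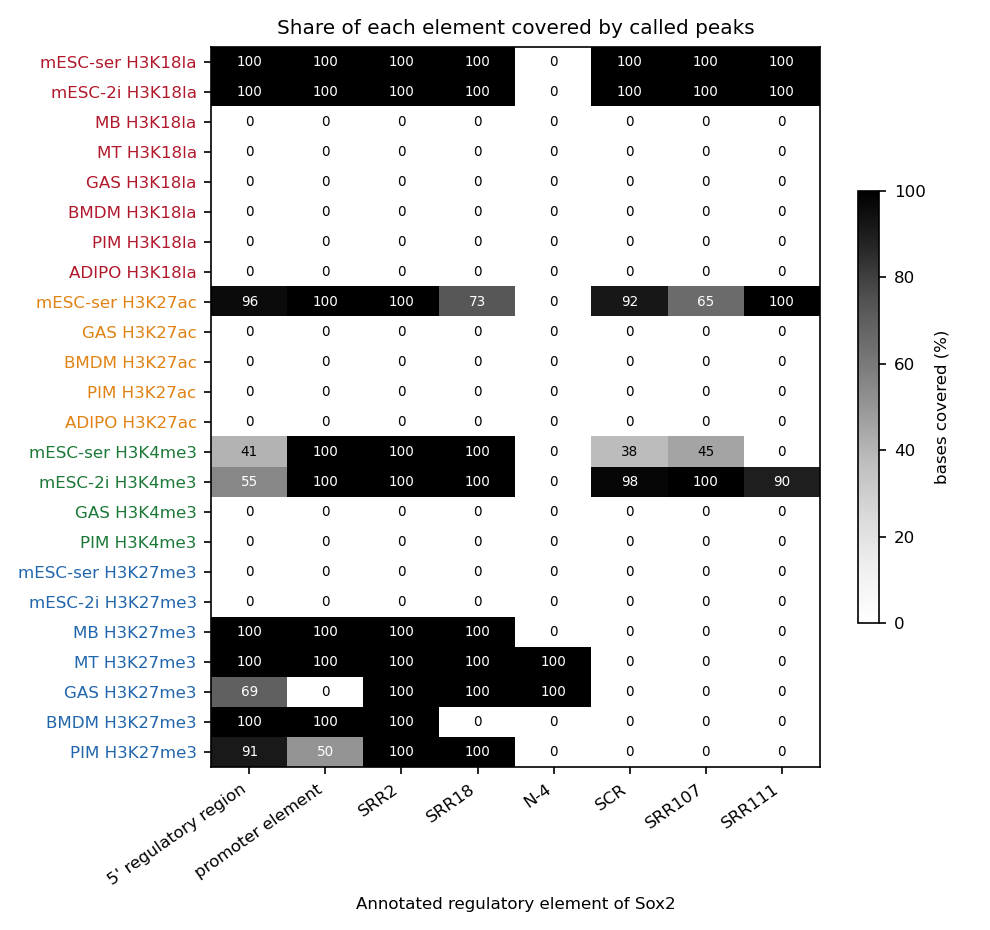
Share of each RefSeq element covered by peaks, in percent, for the 24 lists (rows) and elements (columns, the last pair being the proximal and distal enhancer of the SCR); shading and cell values both give the percent. Active marks of stem cells fill the promoter element and SRR2 and reach the SCR. H3K27me3 of the 5 other cell types profiled for it (not ADIPO) fills SRR2 and leaves the SCR at 0. At other elements it is partial or absent in some, the promoter element at 0 in GAS and SRR18 at 0 in BMDM.

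H3K27ac peaks lay within H3K18la peaks throughout the window. All 35.3 kb of mESC-ser H3K27ac were inside mESC-ser H3K18la, of which they took up 34.7%, and 96.0% were inside mESC-2i H3K18la. Of H3K4me3, 98.6% of the mESC-ser and 98.2% of the mESC-2i coverage was inside the H3K18la peaks of the same medium. Genome-wide, H3K18la lists called more bases (82.4 and 128.1 Mb) than the H3K27ac (32.0 Mb) and H3K4me3 lists (40.9 and 49.8 Mb). The same overlap shares over the genome were not computed, so whether this nesting is particular to the Sox2 window is not known. The marks divided their window signal differently between gene and control region. From 80 to 140 kb lay 53.6% of the mESC-ser and 54.1% of the mESC-2i H3K18la signal and 60.7% of the H3K27ac signal, but 12.2% and 14.4% of the H3K4me3 signal. From -20 to 40 kb lay 33.8% and 28.4% of the H3K18la signal, 36.3% of the H3K27ac signal, and 87.8% and 77.9% of the H3K4me3 signal. From 40 to 80 kb lay 11.4% and 16.4% of the H3K18la signal, 3.05% of the H3K27ac signal and 0% and 7.67% of the H3K4me3 signal.

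Between mESC-ser and mESC-2i, H3K18la shared 92.2 kb, 90.5% of the mESC-ser and 75.7% of the mESC-2i coverage. The longest stretch of difference lay between the gene and the control region. There mESC-2i had a single peak at chr3:34692897-34719979 (27083 bp, rank 803, total 813792), with a maximum of 471 at 50.1 kb (rank 571 by maximum), close to the 478 that the same list reached at 105.1 kb. The mESC-ser list had 3 separate peaks over that stretch, at 40.6 to 52.0, 61.1 to 64.2 and 67.0 to 69.5 kb, with ranks of 2047, 12727 and 16296 by total signal and of 12774, 15928 and 10640 by maximum. Only 55.5% of the mESC-2i peak was covered in mESC-ser. In the other direction, the mESC-ser H3K18la peak at 75.8 to 79.2 kb (rank 7537) had no counterpart in mESC-2i, and mESC-ser H3K27ac had a peak there (rank 13446). The mESC-2i H3K4me3 list also had a peak at 48.3 to 51.2 kb (rank 10535), where mESC-ser had none. The mESC-2i H3K18la list also called more bases over the genome (128.1 Mb against 82.4 Mb in mESC-ser). Its peaks were wider (median 4595 bp against 3183 bp), and the part of this in the differences at Sox2 was not tested. With 1 merged list per medium, the size of these differences cannot be set against a spread between replicates.

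**Figure D5:**
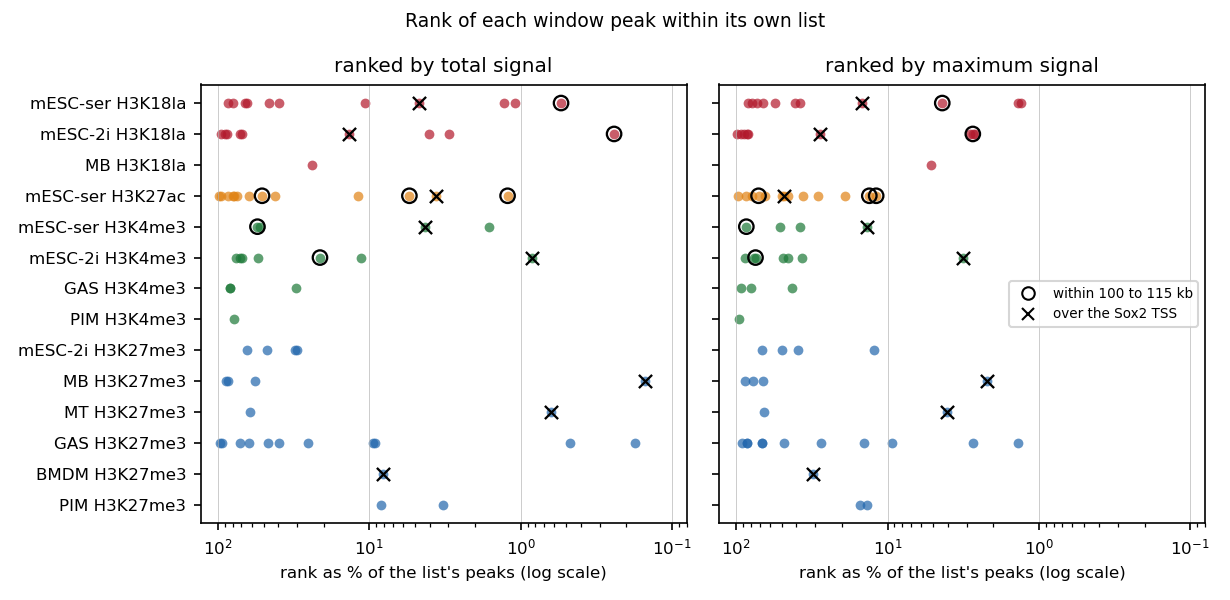
Rank of each of the 73 window peaks within its own list by total signal (left) and maximum signal (right), as percent of the list's peaks on a log axis with the highest ranks at the right, 1 row per list; circles mark peaks touching the control region and crosses peaks over the TSS. By total signal the H3K18la peaks of stem cells reach 0.54% and 0.241%, the H3K27me3 peaks of MB, GAS and MT reach 0.151%, 0.176% and 0.63%, and the GAS and PIM H3K4me3 peaks lie at 30.3% or further left.

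In the other cell types profiled for it, which leave out ADIPO, H3K27me3 formed a broad domain on the gene and its near enhancers. In MB the main peak, chr3:34637016-34675215 (38200 bp), ranked 21 of 13892 by total signal (563829) and 10 by width. In MT the main peak, chr3:34622562-34675577 (53016 bp), ranked 117 of 18566 (1463216). In GAS the domain was divided at the TSS into chr3:34625784-34648908 (rank 171 of 36400) and chr3:34650547-34680704 (rank 64, total 267113). The macrophage domains ranked lower. That of BMDM, chr3:34638813-34667107, ranked 953 of 11768 (top 8.10%), and those of PIM, chr3:34637801-34649860 and chr3:34650418-34669326, ranked 1331 and 516 of 15798 (top 8.43% and 3.27%). The GAS and PIM domains left 1638 bp and 557 bp free over the TSS. Both gaps overlapped the CpG island of the promoter (chr3:34649252-34651530, 63.0% G and C). Over the whole window, the H3K27me3 coverage was less unusual than that of the active marks in stem cells: 5.49% of 400-kb tiles were covered at least as far in MB, 16.2% in MT, 5.79% in GAS, 16.5% in BMDM and 17.6% in PIM.

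The H3K27me3 domains overlapped the stem cell peaks near the gene, and outside GAS no H3K27me3 peak of these cell types lay beyond 30.5 kb downstream. Of the H3K27me3 coverage of the window, 97.6% in BMDM and 94.5% in PIM lay inside the H3K18la peaks of mESC-ser, as did 76.4% in MB, 59.3% in MT and 50.2% in GAS. The same shares over the genome were not computed, so whether this overlap is particular to Sox2 is not known. SRR2 was wholly covered by H3K27me3 in 5 of 5 of these lists and SRR18 in 4, the BMDM peak ending before it. N-4, which no active-mark peak of stem cells reached, was wholly covered in MT and GAS. The SCR was covered in 0 of 5.

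In stem cells H3K27me3 had no peak at the gene or in the control region. The mESC-ser list had no peak in the window, and 28% of all 400-kb tiles had none in that list. The mESC-2i list had 4 peaks on the flanks, at -78.3 to -73.1, 154.8 to 162.2, 217.8 to 221.4 and 223.8 to 228.9 kb, ranking between 7404 and 15816 of 24613. They shared 0 kb with the H3K18la peaks of either stem cell list. Peaks at the first and the second of these positions were also in the GAS list, at -76.8 to -74.6 and 154.8 to 161.3 kb.

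Active marks outside stem cells were few. The GAS H3K4me3 list had 3 peaks, of which chr3:34650531-34651268 lay in the Sox2 transcript with a maximum of 31 and a rank of 24062 of 28915 (top 83.2%). It covered 18.4% of the 4 kb promoter and no longer called it when at least 50% had to be covered or when the top 5000 peaks were used, and it started downstream of the TSS and lay 97.8% within GAS H3K27me3. Of the other cell types that whole muscle holds, Schwann cells are marked by Sox10, whose promoter had an H3K27me3 peak and none of H3K18la in GAS, and the part of such cells in the Sox2 peak was not tested. The largest GAS H3K4me3 peak, chr3:34663447-34666349 (rank 8762), and the only PIM one, chr3:34664167-34666663 (rank 20055 of 25448), lay further downstream and overlapped the Sox2ot start site at 34665243. MB had the only H3K18la peak of the window outside stem cells, at chr3:34510252-34511635, with the peak's middle -139.5 kb from the TSS. It was narrow (1384 bp), ranked 3232 of 13550 by total signal and 702 by maximum (390), and overlapped no peak of another list. No H3K18la peak was in the MT, GAS, BMDM, PIM or ADIPO lists, in which 31.8%, 37.2%, 46.4%, 41% and 36.9% of 400-kb tiles likewise had none. No peak in any of the 10 lists that had none at Sox2 held for 12.3% of tiles, so an empty window is common in these lists.

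The windows of the same size around Pou5f1 (Oct4) and Nanog, the other core pluripotency factors, were set beside that of Sox2. H3K18la covered 23.2% of the Pou5f1 and 27.1% of the Nanog window in mESC-ser, and 15.2% and 42.6% in mESC-2i. At Pou5f1 the highest ranked H3K18la peak lay at the gene in both media (ranks 169 and 285), and the best one over 20 kb away ranked 1527 and 2086. By total signal, which these ranks use, the order at Sox2 was the opposite, with the top 0.54% and 0.241% of peaks reached beyond 20 kb against ranks of 247 and 591 nearer. By maximum signal the best rank at Sox2 was 250 beyond 20 kb and 262 nearer in mESC-ser, and in mESC-2i the order turned, with the peak over the control region at 544 and a nearer one at 523. Nanog had its highest rank beyond 20 kb in mESC-ser (137, against 245 nearer) and at the gene in mESC-2i (142, against 332 beyond). In the 6 other H3K18la lists, the Pou5f1 window had 3 to 10 peaks and the Nanog window 4 to 32, none of them at the promoter of the gene, while the Sox2 window had the single MB peak. These windows hold other genes too, and with 3 loci the difference was not tested.

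Genes with the promoter calls most like those of Sox2 were ranked by the number of lists that matched it, then by the mean difference in promoter coverage. Calls matched in all 24 lists for 8 of the 21754 other protein-coding genes (0.0368%), among them Sall4, Sall1, D330020A13Rik, Nkain4, Utf1, Rpp25 and Igsf9b. The nearest, Sall4, differed from Sox2 by a mean of 5.16 percentage points of promoter coverage per list and Igsf9b by 11.2. The next in order were Tdh and Trh, which matched in 23 lists and lacked the GAS H3K4me3 call. At least 22 matching lists were reached by 0.492% of genes.

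Among the 18 other Sox genes, which encode the related HMG box factors, no promoter had the calls of Sox2 in all 24 lists. The nearest were Sox21, with 21 lists matching, and Sox1, Sox12 and Sox18, with 19. Sox21 and Sox15 had H3K18la in both stem cell lists and in no other list, as Sox2 did. Sox21 however also had H3K27me3 in mESC-ser, and Sox15 had H3K27me3 in no list. Sox1 and Sox3, the closest relatives of Sox2 and like it expressed in neural progenitors, had H3K27me3 in both stem cell lists, with H3K18la in mESC-2i for Sox1 and in neither for Sox3. In mESC-ser, 16 of the 18 had H3K27me3 (27% of all genes), and in mESC-2i 12 of 18 (22.5%). H3K27ac was called in mESC-ser at 2 of the 18, Sox12 and Sox15, against 40.2% of all genes. Of the other H3K27me3 lists, MB called 11 of the 18 (12.5% of all genes), MT 12 (20.1%), GAS 12 (23.9%), BMDM 16 (19.2%) and PIM 17 (26.4%).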

How the data were processed

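CUT&Tag peak lists of 24 groups of mouse samples, built from 41 samples, were analysed. Per the study's methods and the submitters' processing notes, the authors trimmed reads (Trim Galore 0.6.6), aligned them to mm10 (Bowtie2 2.4.4, SAMtools 1.13), computed fragment coverage (bedtools 2.30), merged replicates and called peaks with SEACR 1.3 without a control, keeping the top 1% of regions. The deposited values are the total signal and the maximum signal (coverage) of each peak. Both are whole numbers that were not scaled for depth, so peaks were ranked within their own list and never compared by signal between lists. Read depth per sample was not analysed here, so the precision it gives is not known. The study's methods describe a filter on blacklisted regions, and whether it preceded deposit is not stated.

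Peaks that shared at least 1 bp with the window were taken, and coordinates are 1-based. Overlaps, coverage and ranks were computed with Python 3.11.15, numpy 2.4.6 and pandas 2.3.3, figures were drawn with matplotlib 3.10.9, and the scripts were tested on simulated data. Groups came from the labels. Promoters were the 2000 bp on either side of the GENCODE TSS. Genome tiles, ranks and promoter calls used chromosomes 1 to 19 and X (545474 peaks). Elements, the promoter sequences searched for motifs and the chromosome sequence came from RefSeq on GRCm38. CpG islands were runs of at least 300 bp with 50% G and C and an observed to expected ratio of 0.6 in 200-bp scans. No test was made, since each group has 1 list. Genes named for likeness to Sox2 were the 10 with the most matching lists, ties ordered by mean difference in promoter coverage, and the Sox family, Pou5f1, Nanog and marker genes were listed by name. Some genes that these rules select are not reported here. The locus, elements and lists were chosen with earlier results of these data known.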

Additional observations from a re-analysis of the deposited data

How the results depend on the processing

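Of 92 values recomputed under other settings, 41 moved little and 51 moved, and the Sox2 promoter was called in 10 or 11 of 24 lists under all settings tried, the call lost being GAS H3K4me3 where 50% of the promoter had to be covered or the top 5000 peaks were used. Control region coverage depended on its bounds. With wider bounds, 25 kb from 95 kb on, it was 93.4% (mESC-ser H3K18la), 55.0% (H3K27ac), 15.004% (mESC-ser H3K4me3), 30.1% (mESC-2i H3K4me3) and 2.93% at most elsewhere. With narrower bounds of 9 kb inside the region it was 100% for mESC-ser H3K18la, 41.7% for mESC-ser and 83.7% for mESC-2i H3K4me3. With the SCR as RefSeq bounds it, chosen after seeing the data, it was 100% for mESC-ser H3K18la, 92.1%, 37.8% and 97.7% for mESC-ser H3K27ac and for mESC-ser and mESC-2i H3K4me3. Among the top 5000 peaks it was 67.8% for H3K27ac and 0% for mESC-ser H3K4me3.

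The best rank in the window was lower by maximum signal in mESC-ser and mESC-2i H3K18la (250, 523), H3K27ac (1863), mESC-ser and mESC-2i H3K4me3 (1503, 613) and H3K27me3 of MB, MT, GAS, BMDM and PIM (307, 747, 497, 3634, 2147). By signal per base it was 774 and 829 for H3K18la, 2933 for H3K27ac, 2183 for mESC-2i H3K4me3, and 648, 616, 1391, 4393 and 970 for H3K27me3 in the same order. By width it was 82 for mESC-2i H3K18la, 5 for mESC-ser H3K4me3, and 10, 37 and 452 for H3K27me3 of MB, GAS and BMDM. With peaks under 1 kb apart joined it was 93 for H3K27ac, and 35, 130 and 269 for H3K27me3 of MB, GAS and PIM. The cause of these moves was not tested.

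The share of tiles covered at least as far as Sox2 was 0.6%, 0.737%, 1.44% and 2.77% with 200-kb windows (mESC-ser and mESC-2i H3K18la, then H3K4me3), and 0.593%, 0.776% and 2.37% with the top 5000 peaks (both H3K18la lists and mESC-2i H3K4me3). Over all annotated genes 15 matched Sox2 in every list. With the top 5000 peaks the Sox family calls fell to 119 from 193. No paired analysis was possible because replicates were merged before peak calling, and leaving out a replicate could not be done for the same reason.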

Other observations

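The GAS H3K27me3 list had 4 small peaks between the gene and the control region, at 41.0 to 45.4, 61.2 to 64.4, 66.3 to 69.59 and 93.8 to 95.7 kb from the Sox2 TSS. Their maximum signals were 12 to 16, and they ranked between 9198 and 35388 of 36400 by total signal. Each overlapped an H3K18la peak of both stem cell lists. The last of them, chr3:34744216-34746137, covers the place where mESC-ser H3K18la and H3K27ac had their maxima at 94.99 kb.

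CpG islands were found at 14 places in the window. The islands at the Sox2 promoter and at chr3:34662761-34664862 (2102 bp) held 6 and 3 peak maxima. No island lay in the control region, and the 2 nearest to it were at 55.1 to 55.4 kb and at 153.0 to 153.6 kb.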
